A study of Mus musculus with 23 samples.

Results

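The genes described are 10 regulators of chromatin that are known as drivers or partners of drivers in human B cell lymphoma: Ezh1, Ezh2, Suz12, Eed, Kmt2d, Crebbp, Ep300, Dnmt3a, Dnmt3b and Tet2. They were taken as a named list, and their probes were found through the RefSeq accession that the array gives each probe. All 10 were among the 18217 genes with a probe and among the 13743 genes bright enough to test, and 17 probes carried one of their accessions. The series holds 23 one-colour Agilent arrays with RNA of 22 samples. The 9 lymphoma lines were B cell lymphoma cells from spleens of Atm knockout, Cd3e knockout mice, kept in suspension culture in RPMI1640 with serum. The 6 Atm knockout spleens were free of tumour and came from females that also lacked Cd3e. The 7 Atm wild-type spleens came from 4 male and 3 female Cd3e knockout mice. Every mouse was of the strain C57BL/6 x 129. Ages, and the sex of the mice that gave the lines, are not given in the labels. Atm is the kinase that responds to breaks of both DNA strands, and Cd3e is a signalling chain of the T cell receptor, without which T cells do not mature. The spleens are whole tissue with many cell types, while each line is 1 culture of tumour cells.

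Polycomb repressive complex 2 (PRC2) places methyl groups on lysine 27 of histone H3 and keeps genes silent. Its core holds Suz12, Eed and 1 of the paralogous enzymes Ezh1 or Ezh2, and Ezh2 is the form of dividing cells, including germinal centre B cells. Kmt2d methylates lysine 4 of histone H3 at enhancers, and Crebbp and Ep300 acetylate lysine 27 there, the residue that PRC2 methylates. Dnmt3a and Dnmt3b methylate DNA de novo, and Tet2 oxidises methylated cytosine on the way to its removal.

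A level below is the log2 processed signal of a probe minus the 75th percentile of its array, so that 0 is the signal of a fairly bright probe. Levels of different probes cannot be set against each other. Differences come from limma fitted over all 13743 tested genes, are log2 values with their SE, and were called at a Benjamini-Hochberg adjusted p under 0.05. The labels name separate lines and animals but not how they were bred, so p-values measure the spread between these samples. Atm itself lay between -0.66 and 0.00 in wild-type spleens. The knockout spleens, at -2.69 to -2.07, and the lines, at -4.38 to -2.77, lay below all of these. Cd3e, which every group is labelled as lacking, was well above background in all 22 samples, at -3.30 to -1.22 in the lines and -4.65 to -3.86 in the spleens. Whether its probe lies in the deleted part is not given in the sources used here, so it checks no label. The design text counts 10 lymphoma lines, but the titles mark 1 of the 10 lymphoma arrays as a repeat of another, so these 2 arrays were averaged as line 8 and 9 lines were counted. Those arrays, which also shared 1 slide, were not the most alike pair: their correlation over probes of 0.972 ranked 7 among 45 pairs of lymphoma arrays, whereas lines 4 and 5, on 1 slide, ranked 1 with 0.989. Of 11 B cell markers, 9 were well above background in all 9 lines, and the summed linear signal of the 11, relative to the 75th percentile, was 300.2 to 546 in the lines and 335 to 509 in the spleens. The mean log2 level of the 11, which a few bright markers do not dominate, was lower in every line (1.28 to 2.26) than in every spleen (3.12 to 3.68). This was no general fall of the markers. Against knockout spleens 3 of the 11 were called higher and 4 lower, beside 41.5% and 28.9% of all genes. Their median difference was -0.11, while the lowest was -10.6. For most other cell types of the spleen the summed signal was lower in all lines than in all spleens. The summed signal of 9 neutrophil markers was 0.0448 to 1.48 in the lines and 206 to 964 in the spleens, and that of 8 erythroid markers 0.133 to 2.74 and 123 to 673. For 9 macrophage and monocyte markers the ranges were 24.7 to 49.8 and 77.9 to 143, and for 8 NK cell markers 0.114 to 2.55 and 46.1 to 95.8. For 6 megakaryocyte markers they were 0.111 to 0.448 and 4.17 to 6.96, for 5 dendritic cell markers 0.584 to 8.11 and 6.60 to 12.4, which overlap, and for 9 stromal and endothelial markers 0.347 to 0.906 and 3.53 to 5.02. For 9 T cell markers they were 2.28 to 29.9 and 12.8 to 18.9, with lines 1, 2, 4 and 5 above every spleen, although the mean log2 level was lower in all lines (-4.08 to -2.48) than in all spleens (-1.83 to -1.32). Among these markers Fcgr1, Lcn2, Elane, Epb42, Klrk1, Cd8a, Thy1, Pf4, Ppbp, Gp9, Zbtb46, Col1a1, Col3a1, Kdr and Dcn were above background in none of the 9 lines. The part of this change of cell types in the differences below was not tested, and in whole spleen fewer cells of a type cannot be told apart from less RNA per cell.

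The lymphoma lines had far more Ezh2 RNA than spleens of either genotype, more Suz12 and, by a smaller amount, more Eed. They had less RNA of 6 of the other 7 regulators, but only 3 of these falls were also called with median centring. Against the knockout spleens, which share the missing Atm, 9 of the 10 genes were called: 3 were higher (Ezh2, Suz12, Eed) and 6 lower (Ezh1, Kmt2d, Crebbp, Ep300, Dnmt3a, Dnmt3b). Tet2 was not called. The background was high, since 70.4% of all tested genes were called in this comparison, 41.5% higher and 28.9% lower, so that a share of 9 in 10 says little by itself. Groups did not overlap for Ezh2 and Suz12, whose lines were all higher, against 24.1% of all genes, and for Kmt2d, Dnmt3a and Dnmt3b, whose lines were all lower, against 16.8%. The same 9 genes were called in the same directions against wild-type spleens, where 71.2% of all genes were called, 40.2% higher and 31% lower. There Eed was also without overlap (higher: 23.9% of all genes, lower: 18%). Both comparisons use the same lines. The median difference of the 10 genes was -0.44 against knockout and -0.66 against wild-type spleens, beside medians of 0.18 and 0.13 over all tested genes. With each array centred on its median instead, the medians over all genes became 0.77 and 0.71, and in both comparisons 4 of the 10 genes were then called higher and 3 lower. Those lower were Kmt2d, Dnmt3a and Dnmt3b, and Tet2 joined Ezh2, Suz12 and Eed as higher. The falls of Ezh1, Crebbp and Ep300 were not called on that scale. Against knockout spleens these genes gave 0.04, 0.25 and -0.14.

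**Figure D1:**
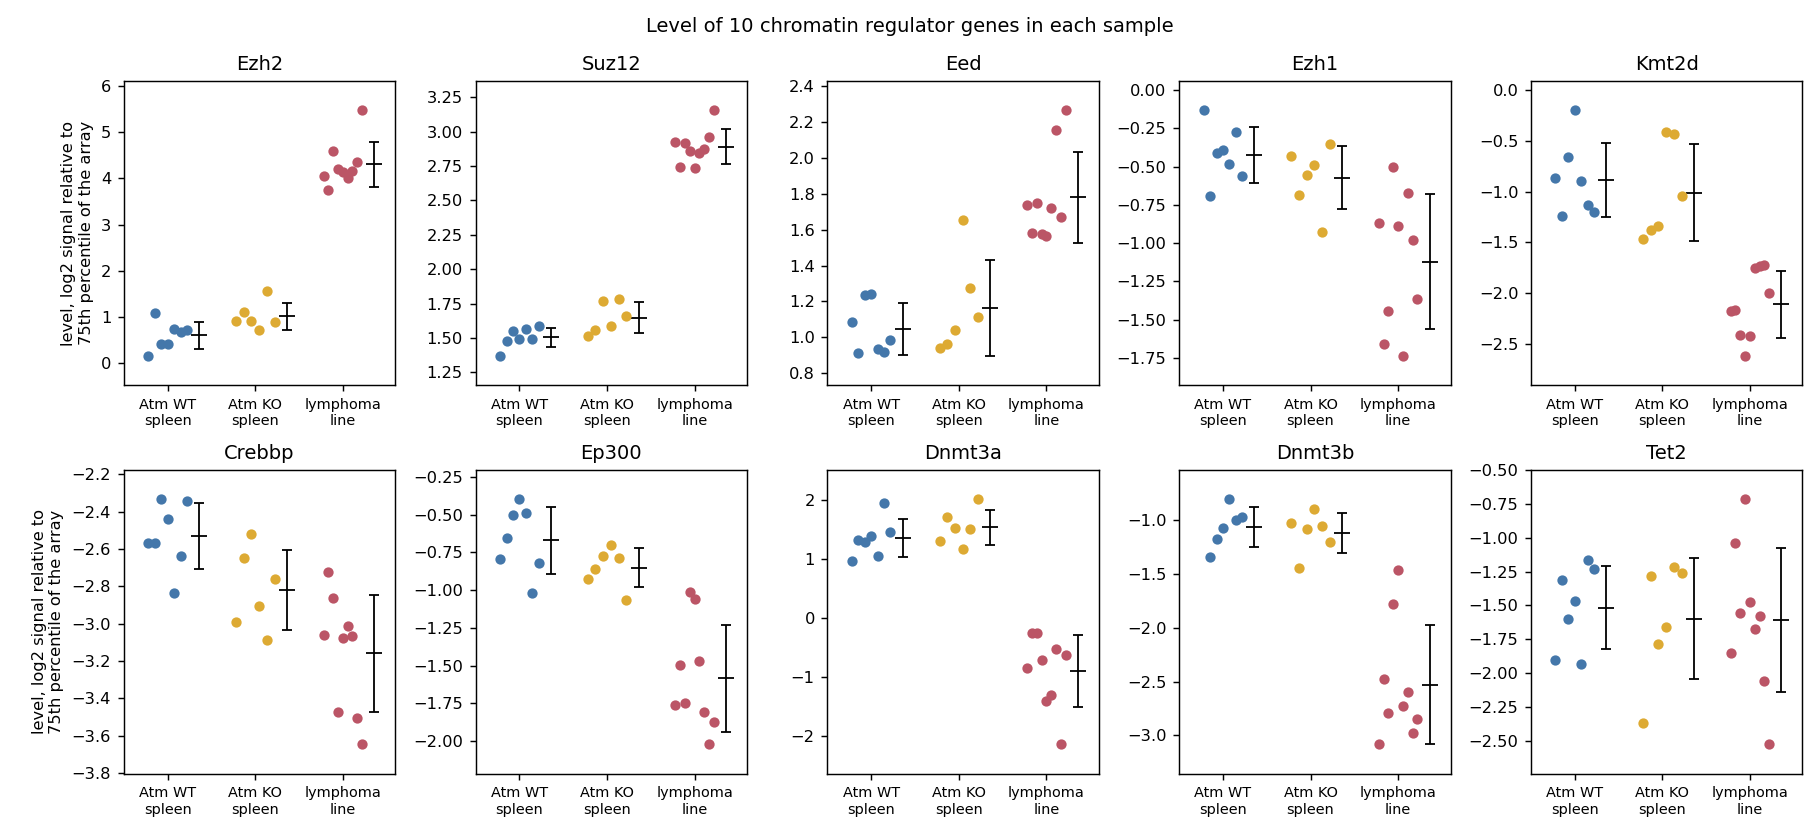
Levels of the 10 genes (log2 processed signal relative to the 75th percentile of the array, 1 panel a gene, each with its own axis) in 7 Atm wild-type spleens, 6 Atm knockout spleens and 9 lymphoma lines; points are samples and bars the mean with SD. The lines lie above all spleens for Ezh2 and Suz12 and below all spleens for Kmt2d, Dnmt3a and Dnmt3b, while the Tet2 groups overlap widely; 1 wild-type spleen has no Dnmt3b value.

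The promoter windows of the PRC2 genes are shown because these 4 genes belong to 1 complex and yet Ezh1 was called lower and the other members higher, although the sign of Ezh1 against knockout spleens turned with median centring. Each window runs from 250 bases before to 50 after the start of the gene, in RefSeq's sequence of GRCm38.p6, written 5′ to 3′ in the direction of the gene. Capitals mark a match to an E2F motif, the binding letters of the factors that switch on genes of the cell cycle. The search on both strands was for TTCCCGC, the common form of the site. It also covered the variant TTCGCGC, and further the letters TTGCCGC as well as the letters TTGGCGC. Ezh2 lies at chr6:47594981-47595280 on the minus strand.
Ezh2: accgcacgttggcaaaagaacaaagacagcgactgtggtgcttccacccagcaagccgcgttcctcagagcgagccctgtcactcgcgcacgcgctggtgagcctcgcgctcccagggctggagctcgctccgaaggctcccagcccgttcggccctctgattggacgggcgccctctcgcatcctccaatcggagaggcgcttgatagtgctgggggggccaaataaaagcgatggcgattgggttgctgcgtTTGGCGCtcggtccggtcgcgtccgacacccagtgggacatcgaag
Suz12 lies at chr11:79992856-79993155 on the plus strand.
Suz12: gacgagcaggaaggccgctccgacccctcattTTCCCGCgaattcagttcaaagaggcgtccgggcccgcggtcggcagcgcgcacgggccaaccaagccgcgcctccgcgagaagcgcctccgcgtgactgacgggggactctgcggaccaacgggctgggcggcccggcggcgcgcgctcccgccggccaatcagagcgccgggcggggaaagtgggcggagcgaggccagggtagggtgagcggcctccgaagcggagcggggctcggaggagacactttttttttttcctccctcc
Eed lies at chr7:89980927-89981226 on the minus strand.
Eed: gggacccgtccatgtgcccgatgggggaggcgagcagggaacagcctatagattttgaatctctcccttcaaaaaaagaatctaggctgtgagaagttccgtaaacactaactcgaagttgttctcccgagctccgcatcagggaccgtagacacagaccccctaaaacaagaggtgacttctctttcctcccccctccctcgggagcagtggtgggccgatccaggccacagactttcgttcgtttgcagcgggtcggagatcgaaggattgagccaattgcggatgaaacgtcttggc
Ezh1 lies at chr11:101226414-101226713 on the minus strand.
Ezh1: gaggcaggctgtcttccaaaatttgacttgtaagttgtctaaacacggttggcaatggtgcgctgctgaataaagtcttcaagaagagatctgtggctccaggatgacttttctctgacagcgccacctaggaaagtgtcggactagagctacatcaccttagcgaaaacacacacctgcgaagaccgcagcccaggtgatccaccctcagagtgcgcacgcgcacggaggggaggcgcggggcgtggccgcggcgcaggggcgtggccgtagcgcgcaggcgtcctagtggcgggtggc
The Ezh2 window holds TTGGCGC with its first base at position 5 after the start, and the Suz12 window holds TTCCCGC at position -218. The windows of Eed and Ezh1 hold none of the letters searched. Of 32851 windows of all genes, 9.57% hold one of them. None of the windows of Kmt2d, Crebbp, Ep300, Dnmt3a (3 windows) and Dnmt3b holds one, and neither does that of Tet2. The CRE letters TGACGTC, the element bound by factors that recruit Crebbp, were in 3.21% of all windows and in 1 of the 10 genes, Tet2 (reverse strand, position 41). All windows of the 10 genes were rich in G and C, with 54.7% to 82.3% GC and 17 to 57 CpG pairs, beside medians of 52.7% and 7 over all windows. A match of letters shows no binding.

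Ezh2, the catalytic subunit of dividing cells, changed most among the 10 genes. Its level in the lines was 3.75 at the lowest, 4.16 at the median and 5.46 at the highest (line 9). In knockout spleens the corresponding values were 0.73, 0.92 and 1.55, and in wild-type spleens 0.17, 0.69 and 1.09. The gap between the lowest line and the highest spleen was thus wider than the spread within any group. The difference was 3.28 ± 0.20 against knockout spleens, a 9.70-fold higher signal (limma, adjusted p = 4.1e-12), and 3.69 ± 0.19 against wild-type spleens (limma, adjusted p = 2.0e-13). It stood at the 98.1 percentile of all differences against knockout and at the 98.4 percentile against wild-type spleens. Within each of the 5 slides that held both groups, Ezh2 was higher in the lines by 2.46 to 3.86 against knockout and by 2.65 to 4.02 against wild-type spleens.

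Suz12, the subunit that holds the complex together, rose by less but with very little spread. The lines ranged from 2.74 to 3.15 with a median of 2.87. Knockout spleens ranged from 1.51 to 1.79 (median 1.62) and wild-type spleens from 1.37 to 1.59 (median 1.49). All lines were above all spleens. The difference was 1.24 ± 0.07 against knockout (2.37-fold; limma, adjusted p = 2.3e-12) and 1.39 ± 0.07 against wild-type spleens (2.62-fold; limma, adjusted p = 1.3e-13). Its other probe gave 1.26 ± 0.12 and 1.35 ± 0.11. The SD of Suz12 over the 9 lines was 0.13, beside a median SD of 0.44 over all tested genes, and only 0.808% of genes varied less. That rank belongs to the brighter probe, since the SD of the other was 0.22.

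Eed, the subunit that reads the methyl mark, was higher by 0.61 ± 0.13 against knockout spleens (1.53-fold; limma, adjusted p = 1.7e-04) and by 0.74 ± 0.12 against wild-type spleens (1.66-fold; limma, adjusted p = 1.1e-05). Its lines lay at 1.57 to 2.26, with lines 7 and 9 the highest, and wild-type spleens at 0.91 to 1.24, without overlap. Knockout spleen 4 reached 1.65 and overlapped with the lines, whereas the other knockout spleens lay at 0.94 to 1.28. With median centring the difference of Eed was 1.20 against knockout spleens, beside a median of 0.77 over all genes, and 1.31 against wild-type spleens, beside 0.71.

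Ezh1, the paralogue of resting cells, moved the other way. Its level was -1.73 to -0.50 in the lines, and the spleens lay at -0.92 to -0.35 (knockout) and -0.69 to -0.13 (wild type). Lines 2, 3, 6, 8 and 9 were below every spleen and the other lines overlapped with them. The difference was -0.55 ± 0.17 against knockout (limma, adjusted p = 0.0063) and -0.70 ± 0.16 against wild-type spleens (limma, adjusted p = 5.4e-04). This fall depends on the scale: with median centring it was 0.04 against knockout and -0.13 against wild-type spleens, and neither was called. The signal of Ezh2 relative to that of Ezh1 does not depend on the scaling of an array, and it was 3.83 higher (log2) in the lines than in knockout spleens and 4.40 higher than in wild-type spleens, with no overlap (exact permutation tests, two-sided, adjusted p = 4.5e-04 and 3.9e-04 over 18 such ratio tests). The ratio of Ezh2 to Suz12 was 2.03 and 2.31 higher, also with no overlap, so the signal of the Ezh2 probe rose by more than that of the Suz12 probe. This does not measure the amounts of the subunits. These ratios were chosen after the values were seen. Ezh2 alone already had no overlap, and the unadjusted p-values were the smallest that these tests can give. The ratio tests are thus no separate evidence of a shift between the paralogues.

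**Figure D2:**
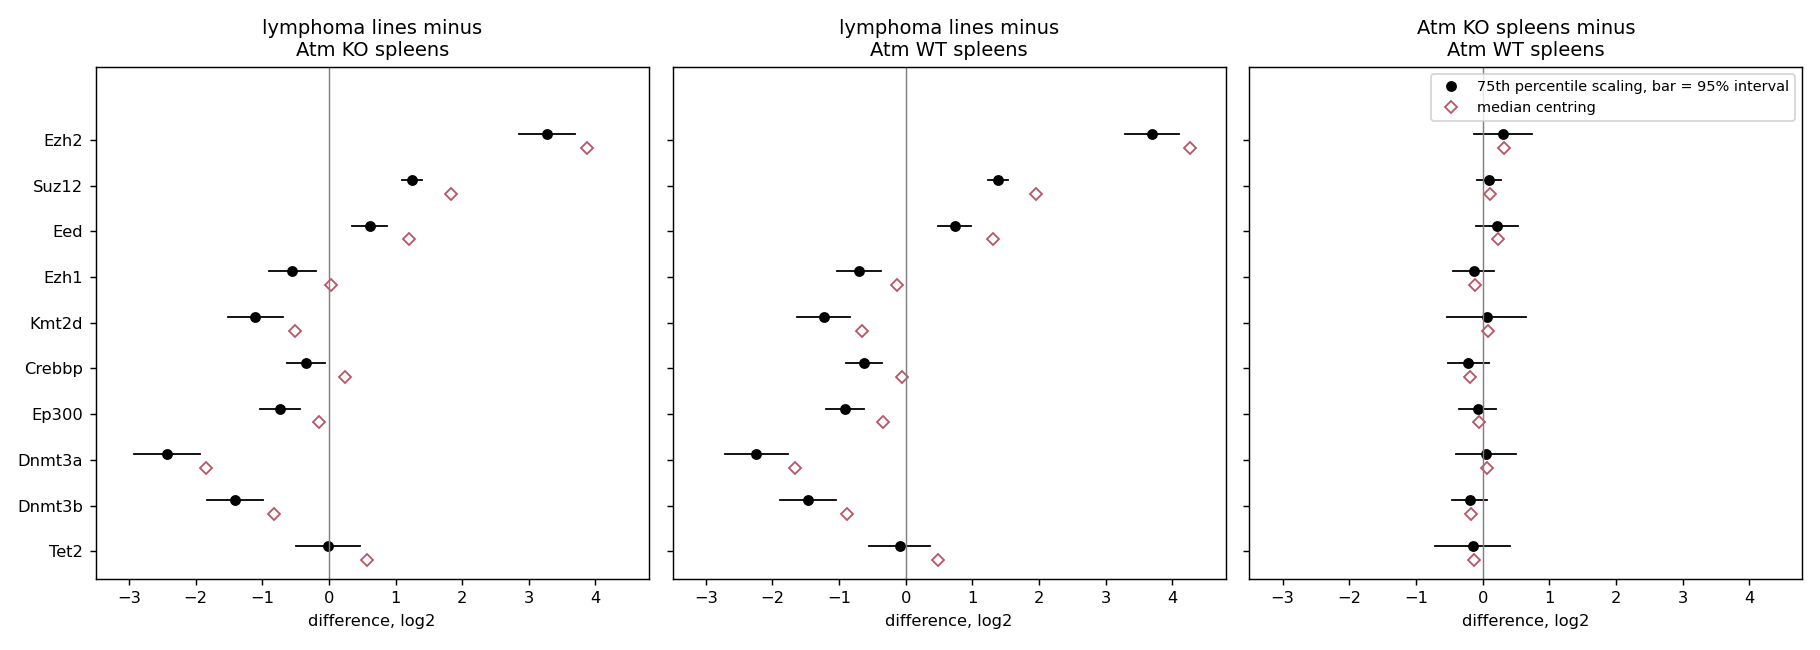
Differences of the 10 genes in log2 units (x axis) for lymphoma lines minus Atm knockout spleens, lymphoma lines minus Atm wild-type spleens and Atm knockout minus Atm wild-type spleens. Black points are scaled to the 75th percentile with 95% intervals, and open diamonds are centred on the array median; Ezh2, Suz12 and Eed lie right of 0 and Kmt2d, Dnmt3a and Dnmt3b left of 0 on both scales, Tet2 moves right, and no interval in the right panel excludes 0.

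The partners of the PRC2 core were split. Of 7 listed partners, 5 were higher and 2 lower in the lines than in knockout spleens (median difference 0.93). Phf19, which guides PRC2 to chromatin, rose most, from -0.14 to 0.66 in knockout spleens to 1.38 to 3.27 in the lines (1.82 ± 0.19; limma, adjusted p = 2.9e-08). Rbbp4, a histone-binding subunit, was 0.93 ± 0.10 higher (limma, adjusted p = 6.7e-08). Jarid2, the cofactor that brings PRC2 to its targets, fell from 2.61 to 3.18 in knockout spleens to -0.69 to 1.63 in the lines (-2.60 ± 0.30; limma, adjusted p = 1.3e-07), and no line reached the lowest spleen of either genotype. Lines 4, 5 and 8 had the highest Jarid2 levels of the lines, at 0.96, 1.63 and 1.54. Phf1, a further guiding factor, was lower by 2.09 ± 0.19 (limma, adjusted p = 2.0e-09).

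In the second polycomb complex, PRC1, which binds the PRC2 mark, 7 of 15 tested genes were higher and 3 lower against knockout spleens. Pcgf1 rose most (2.26 ± 0.22) and Cbx7, a reader of the mark, fell most (-1.25 ± 0.17; limma, adjusted p = 5.9e-09 and 1.5e-06). Bmi1, which represses the Cdkn2a locus, was lower by 0.73 ± 0.13 (limma, adjusted p = 3.3e-05). Whether this fall of Bmi1 holds with median centring was not tested. The counts of both polycomb lists are set against 41.5% of all genes called higher and 28.9% called lower.

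Among 11 tested genes known as PRC2 targets, 4 were higher and 2 lower in the lines than in knockout spleens, shares below the 41.5% and 28.9% of all genes. Cdkn2a, which encodes the inhibitors p16 and p19, was above background in all 9 lines (-3.77 to -0.59) and in no spleen, so that it was at least 29.0-fold higher than in knockout and at least 25.8-fold higher than in wild-type spleens. These bounds take the mean of the dim group at no less than the lowest signal well above background on each array. Cdkn2b, its neighbour, was 3.27 ± 0.26 higher (limma, adjusted p = 2.8e-10). Cdkn1c, another inhibitor of cyclin-dependent kinases, was lower by 1.70 ± 0.52 (limma, adjusted p = 0.0064), with 6 of 9 lines above background.

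The enzymes that remove the PRC2 mark were Kdm6a and Kdm6b. Kdm6b lay at 3.08 to 3.64 in spleens without Atm, at 2.08 to 2.37 in those with it, and at 0.70 to 2.37 in the lines. All knockout spleens were above all other samples, and lines 1, 2 and 7 lay within the range of wild-type spleens. Kdm6b was lower in the lines by 1.74 ± 0.21 against knockout and by 0.65 ± 0.20 against wild-type spleens (limma, adjusted p = 2.2e-07 and 0.0065). Whether these falls of Kdm6b hold with median centring was not tested. Kdm6a gave -0.22 ± 0.17 and 0.36 ± 0.17, neither of them called (limma, adjusted p = 0.27 and 0.057). It lay at -1.41 to -1.08 in male and -0.89 to -0.64 in female wild-type spleens, and at -0.62 to -0.14 in the knockout spleens, all female. These fits hold no sex term and the sex of the lines is not given, so the part of sex was not tested.

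Kmt2d, the enhancer methyltransferase that is lost in many human lymphomas, was lower in the lines, with no overlap on the probe that represents it. Its level was -2.62 to -1.73 in the lines (median -2.16). Knockout spleens lay at -1.47 to -0.41 (median -1.19) and wild-type spleens at -1.24 to -0.20 (median -0.89). In knockout spleens the values split, with spleens 4 and 5 at -0.41 and -0.43 and the rest at -1.47 to -1.04. The difference was -1.10 ± 0.20 against knockout (limma, adjusted p = 4.4e-05) and -1.23 ± 0.19 against wild-type spleens (limma, adjusted p = 5.8e-06). All 3 probes of Kmt2d fell, with differences of -1.10, -1.16 and -0.53 against knockout spleens. On the probe with -1.16 the lines lay at -4.68 to -3.405 and knockout spleens at -3.47 to -2.35. On the probe with -0.53 they lay at -3.95 to -3.02 and -3.34 to -2.67, so both of these probes overlapped. Each probe had all lines below all wild-type spleens. The fall held under each scaling tried, and was smallest with median centring at -0.51 against knockout and -0.66 against wild-type spleens (limma, adjusted p = 0.037 and 0.0072). Kmt2c, its paralogue in the same kind of complex, was lower too. Its lines lay at 2.74 to 3.63, below all knockout spleens (3.76 to 4.16) and all wild-type spleens (3.94 to 4.46). It was lower by 0.84 ± 0.13 and 1.03 ± 0.12 (limma, adjusted p = 4.0e-06 and 1.1e-07). Median centring raised the median difference over all genes, as given above. Whether the falls of Kmt2c and of other single genes beside the members hold on that scale was not tested.

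Of 14 other tested genes of histone H3 lysine 4 methylation, 9 were higher and 2 lower (Kmt2c and Kmt2b) than in knockout spleens, with a median difference of 0.38, beside 41.5% and 28.9% of all genes and a median of 0.18. The list joins genes that place this mark with demethylases that remove it. Its count thus does not describe the methylating enzymes alone. Paxip1, a subunit found with Kmt2c and Kmt2d, rose most, by 1.35 ± 0.12 (limma, adjusted p = 3.3e-09). Kmt2a had no probe among the genes tested.

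The acetyltransferases Crebbp and Ep300 were lower in the lines by small amounts. Ep300 lay at -2.02 to -1.01 in the lines (median -1.75), while spleens lay at -1.07 to -0.70 without Atm and at -1.02 to -0.40 with it. The other lines were below all spleens, at -1.47 or lower, and lines 4 and 5, at -1.01 and -1.06, met the lowest spleens. The difference was -0.73 ± 0.14 against knockout (limma, adjusted p = 1.2e-04) and -0.92 ± 0.14 against wild-type spleens (limma, adjusted p = 4.0e-06). With median centring it was -0.14 and -0.34, and neither was called.

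The other probe of Ep300 set lines 4 and 5 far apart from the rest. They had -1.02 and -0.44 there, above every spleen of either genotype (-3.31 to -2.27), while the other lines lay at -3.85 to -3.53, below every spleen. The difference over all lines was -0.19 ± 0.44 against knockout and -0.38 ± 0.42 against wild-type spleens, neither called (limma, adjusted p = 0.72 and 0.44). Which exons the probes cover is not used here. Lines 4 and 5 were also the most alike pair of all lymphoma arrays, and shared a slide. With the mean of both probes, Ep300 was lower by 0.46 against knockout spleens and was not called (limma, adjusted p = 0.15).

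Crebbp was measured by 1 probe, at -3.65 to -2.72 in the lines. Spleens lay at -3.09 to -2.52 (knockout) and -2.83 to -2.33 (wild type) and overlapped with the lines in each comparison. It was lower by 0.34 ± 0.14 against knockout (limma, adjusted p = 0.030) and by 0.63 ± 0.13 against wild-type spleens (limma, adjusted p = 1.8e-04). The first of these calls is fragile. It was lost when lymphoma line 4, 8 or 9, or knockout spleen 2, 3 or 6, was left out (-0.33 to -0.28), and it turned to 0.25 with median centring and to 0.06 with quantile normalisation or with another background correction. The relation of Crebbp to Ep300 did not pass the test in any comparison (exact permutation tests, two-sided, adjusted p = 0.095 against knockout and 0.17 against wild-type spleens).

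Of 7 other acetyltransferases, 1 was higher and 4 lower than in knockout spleens, with a median of -0.51, beside 41.5% and 28.9% of all genes. Kat2b fell most, from -0.15 to 0.30 in knockout spleens to -1.32 to -0.77 in the lines (-1.12 ± 0.10; limma, adjusted p = 2.3e-09). Kat2a, its paralogue, fell by 0.74 ± 0.16 (limma, adjusted p = 2.8e-04). Neither fall was tested with median centring. Kat5, of the DNA damage response, rose by 0.44 ± 0.09 (limma, adjusted p = 2.3e-04). Of 12 deacetylase genes, which act against these enzymes, 6 were higher and 3 lower, shares close to those of all genes. Hdac8 rose most (1.86 ± 0.14) and Hdac11 fell most (-3.47 ± 0.39), with 4 of 9 lines above background for the latter (limma, adjusted p = 1.9e-10 and 8.3e-08).

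Of the 8 tested genes of antigen presentation by MHC class II, a set whose expression in lymphoma depends on Crebbp, 7 were lower and none higher in the lines than in knockout spleens, with a median of -1.35, beside 28.9% of all genes lower. Against wild-type spleens all 8 were lower, beside 31% of all genes. H2-Oa fell most (-3.44 ± 0.40; limma, adjusted p = 1.0e-07), and Ciita, their master activator, was lower by 1.74 ± 0.29 (limma, adjusted p = 2.0e-05). Cd74 gave -0.32 ± 0.17 against knockout spleens and was not called (limma, adjusted p = 0.087). Dendritic cells and macrophages also express these genes, and their markers were lower in the lines as given above.

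The de novo DNA methyltransferases fell while the maintenance enzyme rose. Dnmt3a lay at -2.14 to -0.25 in the lines (median -0.72). Knockout spleens lay at 1.17 to 2.01 (median 1.51) and wild-type spleens at 0.96 to 1.94 (median 1.32). No line came within 1 log2 unit of any spleen, and line 8 was the lowest. The difference was -2.43 ± 0.24 against knockout (5.39-fold lower; limma, adjusted p = 8.4e-09) and -2.24 ± 0.23 against wild-type spleens (4.72-fold lower; limma, adjusted p = 1.2e-08). Probes with the accessions of both Dnmt3a transcripts fell: the probe of NM_153743 gave the values above, and the probes of NM_007872 gave -1.77 ± 0.23 and -3.26 ± 0.27 against knockout spleens. On the last of these, 8 of 9 lines were well above background. The arrays of line 8 differed by 2.59 for Dnmt3a, at -3.44 and -0.85, which is more than the whole range of the other lines, and by 1.02 for Dnmt3b. For the remaining 8 genes they differed by 0.01 to 0.70. With only the first or only the repeat array of line 8, or without line 8, Dnmt3a was still called lower in both comparisons.

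**Figure D3:**
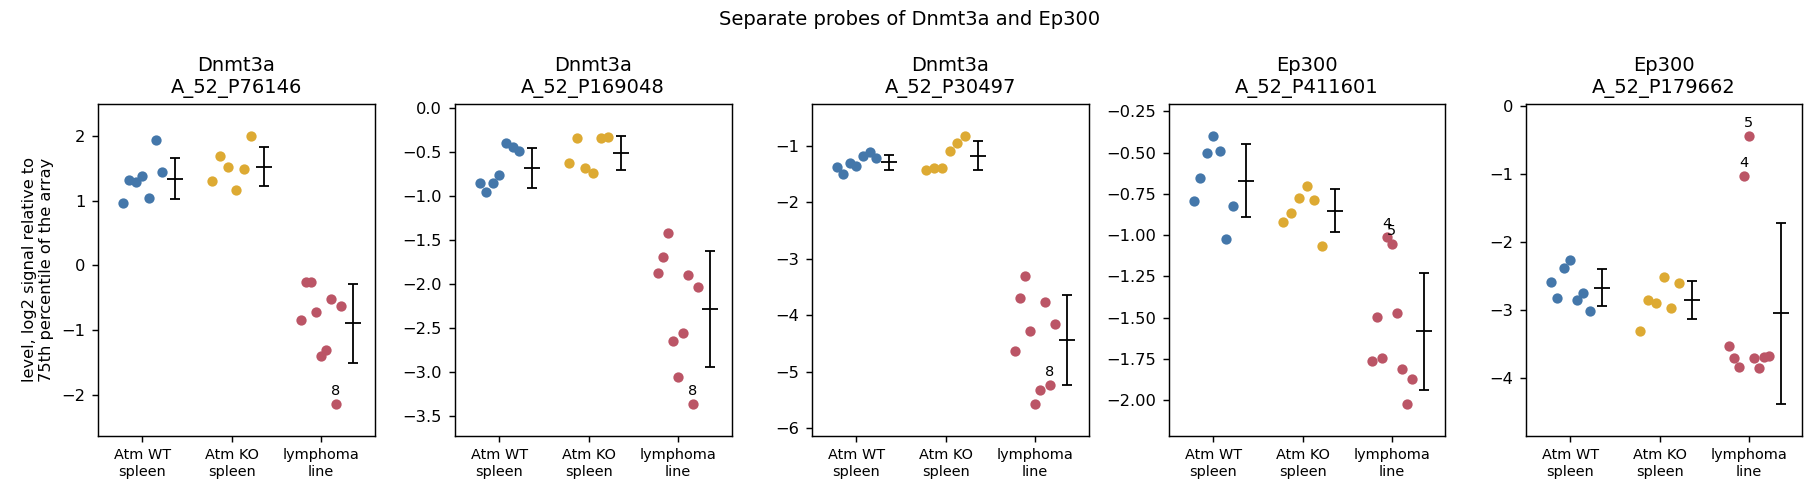
Levels (log2 relative to the 75th percentile of the array, own axis each) of the 3 probes of Dnmt3a and the 2 probes of Ep300 in every sample, with mean and SD. All Dnmt3a probes have the lines below every spleen, with line 8 marked; the second Ep300 probe has lines 4 and 5 (marked) at -1.02 and -0.44 and the other lines at -3.85 to -3.53.

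Dnmt3b was at -3.08 to -1.46 in the lines (median -2.72). The 6 knockout spleens lay at -1.44 to -0.89 and 6 wild-type spleens at -1.34 to -0.80, since the spot of wild-type spleen 1 carried a scanner flag and was dropped. Lines 4 and 5, at -1.78 and -1.46, were the highest lines, and line 5 lay just below the lowest knockout spleen. The difference was -1.41 ± 0.20 against knockout (limma, adjusted p = 2.9e-06) and -1.47 ± 0.20 against wild-type spleens (limma, adjusted p = 1.5e-06). With median centring it was -0.82 and -0.88, both called. With the deposited value table it was -2.88 against wild-type spleens, still called, and -1.44 against knockout spleens, not called (limma, adjusted p = 0.014 and 0.23). Dnmt1, which copies methylation after replication, lay at 2.49 to 4.66 in the lines, while spleens lay at 2.30 to 2.67 without Atm and at 2.03 to 2.49 with it. It rose by 1.19 ± 0.24 and 1.31 ± 0.23 (limma, adjusted p = 1.2e-04 and 2.2e-05). Its partner Uhrf1 rose by 1.79 ± 0.26 and 2.53 ± 0.25 (limma, adjusted p = 2.8e-06 and 7.9e-09). The signal of Dnmt1 relative to Dnmt3a was 3.62 and 3.55 higher in the lines than in knockout and wild-type spleens, with no overlap (exact permutation tests, two-sided, adjusted p = 4.5e-04 and 3.9e-04). Dnmt3a alone already had no overlap and Dnmt1 moved the other way, so this ratio is no separate evidence. It was chosen after the values were seen, and its unadjusted p-values were the smallest that these tests can give.

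Tet2 was the 1 gene of the 10 with no call. The lines lay at -2.52 to -0.72 (median -1.57), against -2.37 to -1.22 for knockout spleens (median -1.47) and -1.93 to -1.17 for wild type (median -1.46). Line 9 was the lowest and line 4 the highest sample of all. The difference was -0.01 against knockout spleens with a 95% interval of -0.49 to 0.47 (limma, adjusted p = 0.97), and -0.09 against wild-type spleens with -0.55 to 0.36 (limma, adjusted p = 0.72). Its other probe gave -0.18 ± 0.18 and -0.24 ± 0.17 (limma, adjusted p = 0.38 and 0.20). With median centring Tet2 was called higher, by 0.58 and 0.48. Tet3, a related enzyme, was 0.36 ± 0.14 higher than in knockout spleens and gave 0.20 ± 0.13 against wild-type spleens (limma, adjusted p = 0.026 and 0.17). Of the 12 tested genes of DNA methylation beside the members, 8 were higher and 1 lower than in knockout spleens (median 0.95), beside 41.5% and 28.9% of all genes. This list, too, mixes genes that place, bind and remove the mark. Mbd1, which binds methylated DNA, rose most (3.08 ± 0.23; limma, adjusted p = 1.1e-10).

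**Figure D4:**
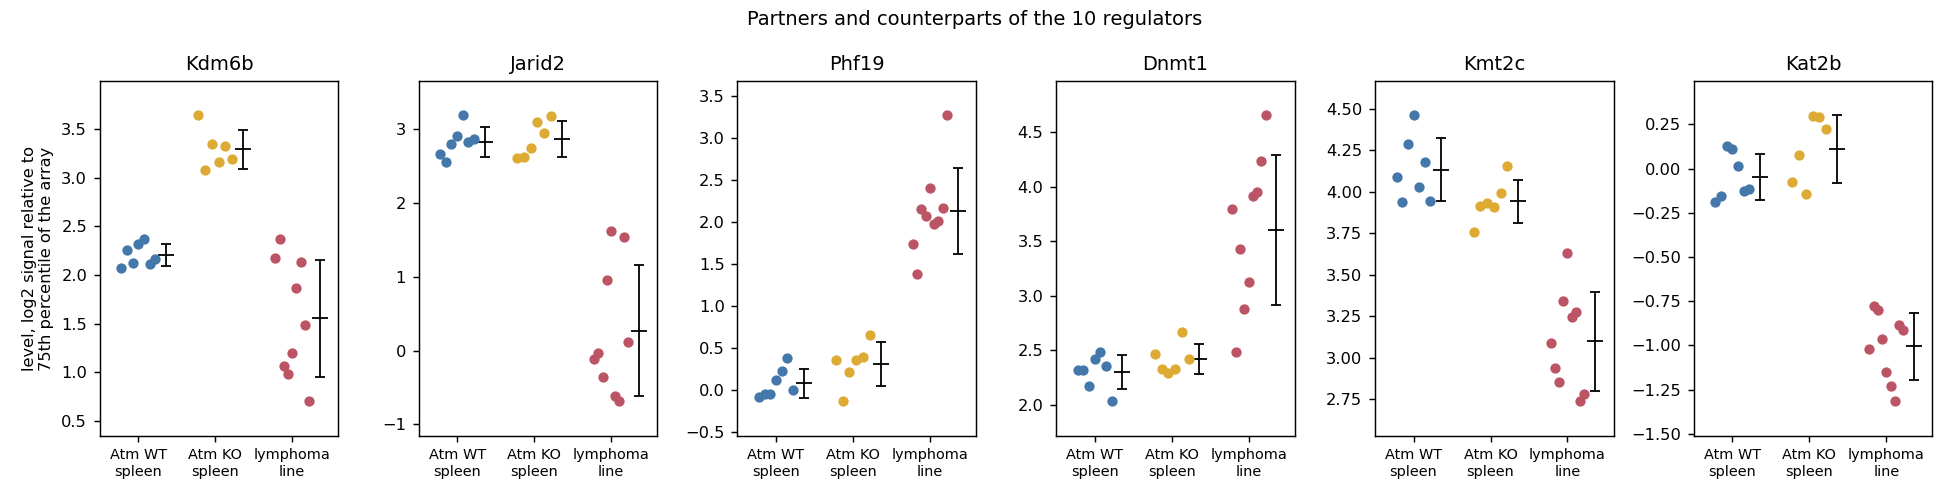
Levels (log2 relative to the 75th percentile of the array, own axis each) of Kdm6b, Jarid2, Phf19, Dnmt1, Kmt2c and Kat2b in 7 Atm wild-type spleens, 6 Atm knockout spleens and 9 lymphoma lines, with mean and SD. Kdm6b separates both sets of spleens (2.08 to 2.37 against 3.08 to 3.64), while the lines lie below all spleens for Jarid2, Kmt2c and Kat2b and above them for Phf19.

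Of 8 other chromatin genes mutated in lymphoma, 3 were higher and 2 lower than in knockout spleens, with a median of -0.10, shares near the 41.5% and 28.9% of all genes. Nsd2, which methylates lysine 36 of histone H3, rose most (1.96 ± 0.18), and Dot1l, which methylates lysine 79, fell most (-0.82 ± 0.24; limma, adjusted p = 2.2e-09 and 0.0045).

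Between the spleens of both genotypes, none of the 10 genes was called (limma with terms for genotype and sex), and 0 had an unadjusted p under 0.05. Over all tested genes 3.82% were called, 1.65% higher and 2.17% lower, and 2.23% (higher) and 2.1% (lower) did not overlap. The differences, knockout minus wild type, ran from -0.21 for Crebbp to 0.31 for Ezh2, and their 95% intervals lay within -0.71 and 0.74. For Ezh2 the interval was -0.13 to 0.74, for Suz12 -0.09 to 0.28, and for Dnmt3a -0.40 to 0.50, so that a log2 difference of 1 in either direction lies outside the intervals. In the same fit Kdm6b was 1.07 ± 0.12 higher in knockout spleens with no overlap (limma, adjusted p = 0.0011), and Prdm1, a PRC2 target that drives plasma cell fate, 0.77 ± 0.15 higher with no overlap (limma, adjusted p = 0.015). Of 8 NK cell markers 6 were lower in knockout spleens. Whether this has a part in these differences was not tested. The same fit found no call for sex among the 10 genes (lowest adjusted p 0.55, Dnmt3b).

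Among the lines, the 10 genes varied to different extents. The SD over 9 lines was 0.62 for Dnmt3a, 0.55 for Dnmt3b, 0.53 for Tet2 and 0.49 for Ezh2, above the median of 0.44 over all genes. It was 0.44 for Ezh1, 0.36 for Ep300, 0.33 for Kmt2d, 0.31 for Crebbp, 0.25 for Eed and 0.13 for Suz12. In knockout and wild-type spleens the medians over all genes were 0.23 and 0.21.

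Ezh2 followed the level of proliferation genes in wild-type spleens. The mean level of 24 proliferation genes, none of them a member, was 3.13 to 4.64 in the lines, 1.68 to 2.49 in spleens without Atm and 1.08 to 2.22 in those with it, and 23 of the 24 were higher in the lines than in either set of spleens. Within the 7 wild-type spleens, Ezh2 rose with this mean (r = 0.956, rho = 1.0; exact permutation, two-sided, adjusted p = 0.0040 and 0.0079 over 20 relations, chosen after the values were seen). Without the pair of spleens farthest from the median of the proliferation mean r was 0.926 over 5. Within the 6 knockout spleens r was 0.752 and rho 0.943 (exact permutation, adjusted p = 0.30 and 0.16), and r was 0.775 over the 4 left without the farthest pair. None of the other relations of the 10 genes with this mean in spleens passed. Within the 9 lines, r of Ezh2 with this mean was 0.816 and rho 0.65 (exact permutation, adjusted p = 0.068 and 0.23 over 55 relations), and r was 0.787 without the farthest pair. Among the lines that pair was farthest from the median of the gene named first, not of the proliferation mean. Such values of lines and spleens are thus not trimmed alike. The groups form separate clusters, so no value over all samples is given.

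Over all 55 relations among the 10 genes and this mean in the lines, 0 passed the adjusted threshold by Pearson or by Spearman correlation, while 14 and 12 had an unadjusted p under 0.05. The strongest was Ep300 with Dnmt3b (r = 0.906, rho = 0.767; exact permutation, adjusted p = 0.068 and 0.17). Its r fell to 0.589 without lines 4 and 5, the pair farthest from the median of Ep300. Lines 4 and 5 shared a slide and were the most alike arrays, yet each counted as a separate point in these relations. Without them, Crebbp with Tet2 gave r = 0.940 and Suz12 with Tet2 r = -0.957 (exact permutation, adjusted p = 0.055 each). Tet2 ran against the proliferation mean (r = -0.880, rho = -0.833; exact permutation, adjusted p = 0.068 and 0.12), and r was -0.920 without the farthest pair. Suz12 gave r = 0.861 and rho = 0.733 with the same mean (exact permutation, adjusted p = 0.068 and 0.19), and r = 0.876 and rho = 0.70 with Ezh2 (exact permutation, adjusted p = 0.068 and 0.20). The latter was 0.618 without the pair farthest from the median of Ezh2. These values depend on the scale. With median centring 4 relations passed by Pearson and none by Spearman correlation. They were Suz12 and Ezh2 with the proliferation mean (r = 0.922 and 0.873) and Ep300 with Dnmt3b (r = 0.874, and 0.764 without the farthest pair; exact permutation, adjusted p = 0.017 each), and Ezh2 with Suz12 (r = 0.840, and 0.768 without the farthest pair; exact permutation, adjusted p = 0.048). On that scale r of Tet2 with the mean was -0.611 (exact permutation, adjusted p = 0.37).

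**Figure D5:**
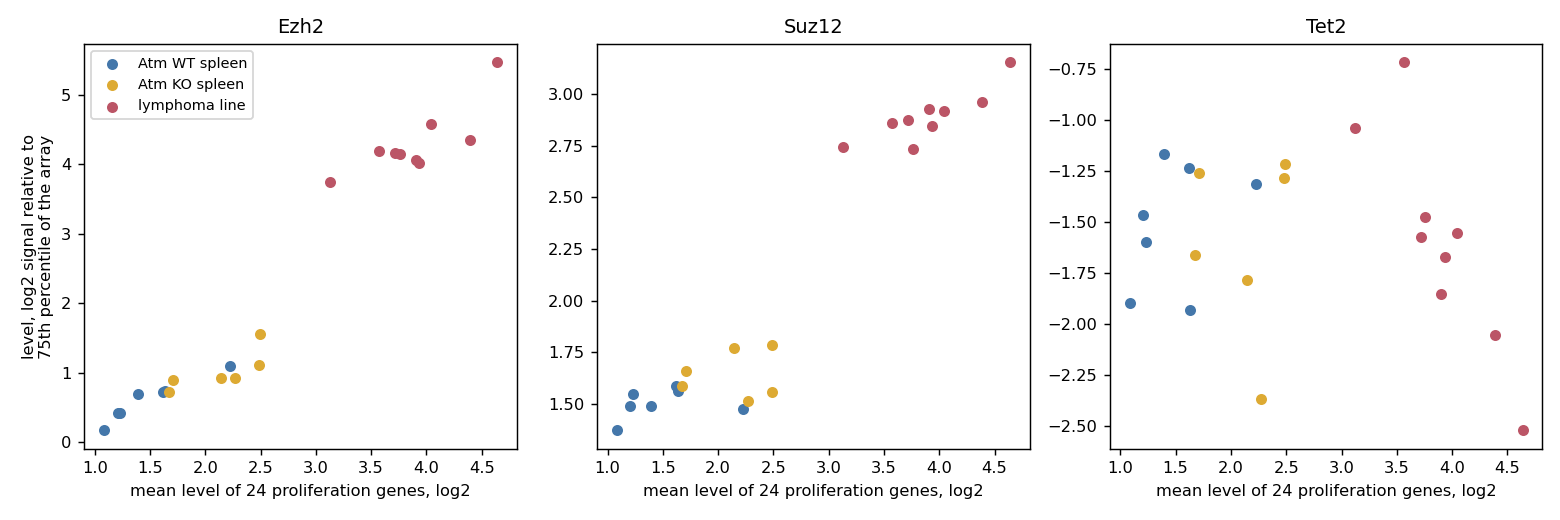
Levels of Ezh2, Suz12 and Tet2 (y axes, log2 relative to the 75th percentile of the array) against the mean level of 24 proliferation genes (x axis, log2) in 22 samples, coloured by group. Ezh2 climbs with the mean within the wild-type spleens (r = 0.956) and the lines form a cluster of their own at 3.13 to 4.64.

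The tested genes whose levels followed a member most closely over the 22 samples were found by the root mean square difference after centring each gene on its mean. For Ezh2 they were Cep55, Nek2 and Cdca2, all of cell division, at 0.29 to 0.33, beside a median of 1.75 over all genes. For Suz12 they were Tcp1, Ccnh and Rfwd3 (0.11 to 0.13; median 0.77), and for Eed Lsm14a, Clp1 and Becn1 (0.14 to 0.15; median 0.63). For Ezh1 they were Psd4, Mcoln1 and Ccdc130 (0.19 to 0.21; median 0.77). Kmt2d was followed by Vasp, Msantd2 and Apc (0.27 to 0.29), and Crebbp by Zbtb39, Wasf2 and Fam160b1 (0.18 to 0.19; median 0.72). Ep300 was followed by Ammecr1l, Ankrd12 and Kmt2c (0.20 to 0.21; median 0.83), the last being the Kmt2d paralogue described above. Dnmt3b was followed by Lpin1, Fmn1 and Ecm1 (0.24 to 0.26; median 1.07) and Tet2 by Bod1l, Bbx and Ddx23 (0.26 to 0.29; median 0.70).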

How the data were processed

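RNA was hybridised to Agilent one-colour arrays. Each deposited scanner file holds the intensity of every spot as written by Feature Extraction 10.7.1.1, per the file headers, with background already subtracted. The deposited value table holds log2 values with all 41174 probes centred on a median of 0; array medians run from -0.207 to 0.522, its scaling is not stated, and it served as an alternative. Symbols came from RefSeq accessions joined to a RefSeq gene table of GRCm38.p6 (26690 of 41174 probes). Control spots (1639 of each array) and 1556 flagged spots were left out, spots of 1 probe averaged, and log2 levels taken relative to the 75th percentile. A gene was tested if well above background in at least 6 of 22 samples, and the probe with the highest mean represented it.

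Models were fitted in R 4.3.3 by limma 3.58.1, the lymphoma comparisons over 3 groups and the genotype comparison over spleens with a sex term, with Benjamini-Hochberg adjustment over 13743 genes. The members, lists and tests were chosen with earlier results of these data known. Named genes are the members, the largest rise and fall of each list, a fixed set of enzymes and the 3 most alike genes of each member; a few genes that this rule names are not reported here. On simulated data for lymphoma lines against knockout spleens, run on 13743 genes, 32% of changes of 0.5, 74% of 1 and 93% of 2 (log2) were recovered. Whether these rates hold for the measured data, where 70.4% of all tested genes were called in that comparison, was not tested. The number of arrays limits the precision. The background alternative used the median spot signal, not the mean signal planned. Correlations and ratios used Python 3.11.15 with numpy 2.4.6 and exact permutation tests. Alternatives were other scalings, background correction, filters, probe averages, slide terms, single arrays of line 8, and leaving out samples.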

Additional observations from a re-analysis of the deposited data

Results flagged for a closer look

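Of 30 sets of values (10 genes in 3 groups), 1 held a sample far from the others. Lymphoma line 9 had an Ezh2 level of 5.46 while the next highest line had 4.58, a gap of 0.513 of the whole range which is above the 95% limit of Dixon's test for 9 samples. Chance marks about 1 in 20 such sets. Line 9 also had the highest proliferation mean of the lines, 4.64, and the highest Suz12 level, 3.15. Without line 9 Ezh2 was still called higher in both lymphoma comparisons.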

How the results depend on the processing

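Ezh2, Suz12, Eed, Kmt2d and Dnmt3a kept their call and direction in both lymphoma comparisons under each of 30 alternatives against knockout and 32 against wild-type spleens. Dnmt3b kept its direction in all and lost its call against knockout spleens with the deposited value table (-1.44; limma, adjusted p = 0.23). Calls were also lost for Ezh1 with normexp background against knockout (-0.35) and with median centring against wild-type spleens (-0.13). Ep300 lost its calls with median centring (-0.14 and -0.34) and, against knockout, with the mean of probes (-0.46). Crebbp lost its call against knockout spleens with slide as a fixed term (-0.16) or random block (-0.27), without the lines of the slide that held lymphoma lines only (-0.22), with only the compared groups fitted (-0.34) and, as an alternative chosen after seeing the data, without lines 4 and 5 (-0.31). The arrays of line 8 as 2 samples, also chosen after seeing the data, changed no call or direction. Leaving out 1 sample gave -0.39 to -0.28, with the call lost without line 4, 8 or 9 or without knockout spleen 2, 3 or 6. Against wild-type spleens it lost its call with median centring (-0.05), quantile normalisation (-0.25) and normexp background (-0.62). The causes were not tested.

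Signs turned as follows. Against knockout spleens Ezh1 gave 0.039 with median centring, and Crebbp 0.25 with median centring, 0.064 with quantile normalisation and 0.061 with normexp background. Tet2, which had no call, gave 0.58 with median centring (called), 0.18 with quantile normalisation, 0.13 with normexp background, 0.19 with slide as a fixed term, 0.066 with slide as a random block, 0.028 with the repeat array of line 8 only and 0.21 without the slide of lymphoma lines only. Leaving out 1 sample gave -0.17 to 0.10. Against wild-type spleens Tet2 gave 0.48 with median centring (called), 0.085 with quantile normalisation, 0.13 without the slide of lymphoma lines only, and -0.20 to 0.0227 with 1 sample left out. Between genotypes, where 0 of 249 values over all alternatives were called, Ezh1 gave 0.020 with slide as a fixed term, Kmt2d -0.19 with normexp background, -0.11 with the mean of probes, and -0.13 both without a sex term and with all 3 groups in one fit, and Dnmt3a -0.0071 with the mean of probes. Leaving out 1 spleen gave -0.058 to 0.15 for Kmt2d, -0.20 to 0.069 for Ep300, -0.17 to 0.29 for Dnmt3a and -0.40 to 0.0031 for Tet2.

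Relations within the lines that passed the adjusted threshold numbered 4 with median centring, 8 with normexp background, 1 with the first array of line 8 only, and 0 to 3 with 1 line left out (3 without line 4). No paired analysis was possible because the labels give no replicate numbers that samples of different groups share. Where members of both groups lay on 1 slide, Crebbp differed by -0.52 to 0.07, Ep300 by -1.04 to 0.03 and Tet2 by -0.45 to 0.52 against knockout spleens. Signal over background limits the weakest probes, of which 1 Dnmt3a probe was well above background in 8 of 9 lines.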
